A study of Rattus norvegicus with 8 samples.

Results

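The lung mesenchyme transcription factors described here are a named set of 10 genes: the T-box factors Tbx2, Tbx3, Tbx4 and Tbx5, the basic helix-loop-helix factors Tcf21 and Twist1, the homeobox factors Meox2 and Hoxa5, the forkhead factor Foxf2 and the Hedgehog effector Gli1. They were taken by gene symbol from a table of 32623 rat genes, where 8 of the 10 were matched. Foxf2 and Hoxa5 are not analysed here. RNA sequencing had been run on poly(A)-selected RNA from whole lung of rats (Rattus norvegicus) in 4 libraries labelled MCT and 4 labelled control. MCT is taken as monocrotaline, a pyrrolizidine alkaloid used in rats to produce pulmonary hypertension. The labels give no strain, sex, age, dose or time after treatment, no vehicle for the control group, and they do not say whether each library is its own animal. The p-values below therefore measure library-to-library spread alone, which may be technical.

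The mesenchyme of the lung (fibroblasts, smooth muscle, pericytes) is patterned in the embryo by signals exchanged with the epithelium. In the mouse, Tbx4 and Tbx5 act in this mesenchyme upstream of the growth factor gene Fgf10 to drive branching, and Tbx2 and Tbx3 are repressors that keep mesenchymal cells dividing by holding down cell cycle inhibitor genes. Hedgehog ligands from the epithelium act on mesenchymal cells through the receptor gene Ptch1 and the Gli factors, and Gli1 and Ptch1 are themselves transcribed in response. Tcf21 marks fibroblasts of the alveolar wall, and variants in human TBX4 are linked to pulmonary arterial hypertension.

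The sequence shown first is the promoter of Ptch1, because among the Hedgehog pathway genes with an entry its start region was the one that held the 9-letter GLI motif, GACCACCCA on either strand. It comes from RefSeq on build GRCr8, chr17:1555321-1555620 on the plus strand, and runs from 250 bases before the annotated start to 50 after it. The deposited table, on Rnor_6.0, has Ptch1 on the minus strand of chromosome 17, and the builds were not aligned here. The motif stands in capitals, read from the opposite strand, and begins 172 bases before the start.
Ptch1: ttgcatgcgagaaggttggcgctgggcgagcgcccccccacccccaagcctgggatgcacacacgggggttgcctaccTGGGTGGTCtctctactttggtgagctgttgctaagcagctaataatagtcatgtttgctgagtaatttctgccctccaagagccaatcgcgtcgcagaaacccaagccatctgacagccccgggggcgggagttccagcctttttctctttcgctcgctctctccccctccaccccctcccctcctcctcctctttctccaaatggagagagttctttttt
This motif was found in 0.385% of 33469 rat promoters of the same length, and in 1 of the 10 from the Hedgehog list. Of the measured factors, 5 had a promoter entry (Tbx4, Tbx5, Tcf21, Meox2 and Twist1), and none of those held the GLI motif or the 8-letter T-box motif AGGTGTGA, which 1.1% of all promoters hold on either strand. A match of letters is a description and no evidence of binding. Tbx2, Tbx3 and Gli1 had no entry in the promoter table.

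The deposited counts stood for about 11300000 to 18100000 read pairs per MCT library and 10800000 to 14800000 per control library. MCT 1 had the highest summed level of 9 cardiac muscle markers, 176 FPKM, followed by control 1 at 70.7 FPKM, against 27.4 to 54.7 FPKM in the other libraries, and the sum of 7 ciliated cell markers was highest in MCT 1 and control 1, at 791 FPKM in MCT 1 and 816 FPKM in control 1, against 378 to 688 FPKM in the other libraries. FPKM is the number of fragments scaled to transcript length and library depth. Across the table, 16715 genes were tested with edgeR's quasi-likelihood test, and 20.5% of them passed a Benjamini-Hochberg adjusted p of 0.05 in MCT against control, 11% of all tested genes being higher in MCT and 9.45% lower.

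All 8 measured factors were tested. In MCT lungs Tbx3 fell, and no other factor passed the threshold in either direction. That is 1 of 8 lower (12.5% called, against the 20.5% of all genes) and 0 of 8 higher. At an unadjusted p of 0.05, 1 factor was higher (Meox2) and 1 lower (Tbx3), and DESeq2 and limma each called 1 lower and 0 higher. The median log2 fold change of the 8 factors was -0.11, against 0.03 for all genes tested. The order of levels was the same in all 8 libraries: Tcf21, Tbx2, Tbx4, Tbx3, Tbx5, Meox2, Gli1 and Twist1 from high to low. The ranges over all libraries overlapped between Tcf21 and Tbx2, between Tbx4 and Tbx3 and between Tbx5 and Meox2, while the other neighbours in the order did not overlap.

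**Figure D1:**
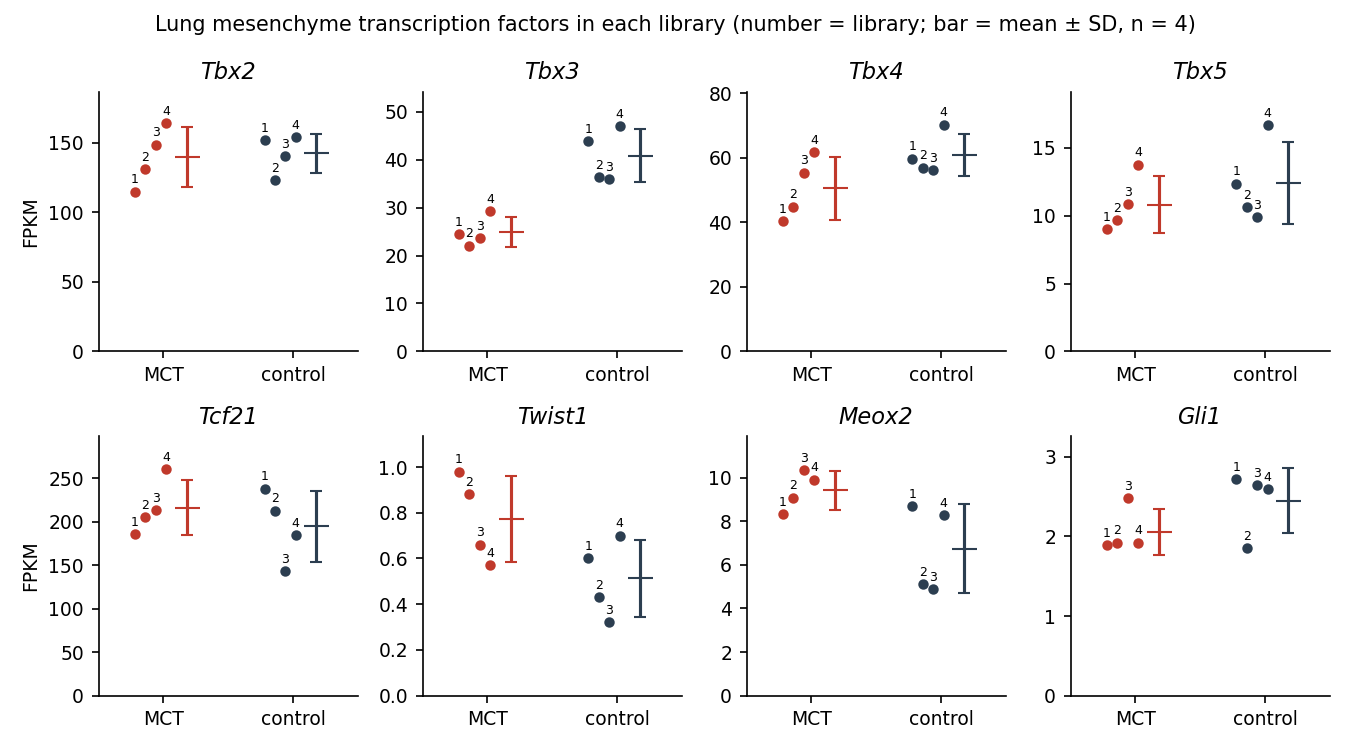
FPKM (vertical axes, from 0, a scale for each gene) of the 8 measured factors in each MCT and control library; the numbers mark the library, and bars give the mean ± SD over 4 libraries. The Tbx3 points of MCT, at 22.1 to 29.3 FPKM, all lie under those of control, at 36.0 to 47.1 FPKM, and in each other panel the groups overlap.

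Tbx3 (ENSRNOG00000008706, chromosome 12 from 42480560 to 42492526 on the minus strand of Rnor_6.0, protein coding) encodes a T-box repressor. Its level was 24.4, 22.1, 23.6 and 29.3 FPKM in MCT 1 to 4, against 43.8, 36.4, 36.0 and 47.1 FPKM in control 1 to 4. The groups did not overlap, as was also true of 25% of all genes tested. The mean was 24.9 ± 3.12 FPKM in MCT and 40.8 ± 5.51 FPKM in control (SD, n = 4 each). The log2 fold change was -0.71 (SE 0.11, 95% interval -0.97 to -0.46), that is, 0.609 times the control level, with an adjusted p of 0.00316 by edgeR. These levels rest on 874 to 1670 read pairs per MCT library and 1240 to 2040 per control library.

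Tbx2 (ENSRNOG00000003517, chromosome 10 from 73279119 to 73289921, plus strand), the closest relative of Tbx3, is likewise a repressor. It was at 115, 131, 149 and 164 FPKM in MCT 1 to 4, against 152, 123, 141 and 154 FPKM in control 1 to 4. The 4 control values all lie inside the range of the MCT values. The log2 fold change was -0.03 (SE 0.11, adjusted p 0.886 by edgeR), and its 95% interval of -0.28 to 0.22 bounds the change between 0.823 and 1.17 times the control level.

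Tbx4 (ENSRNOG00000003544, chromosome 10 from 73333119 to 73362783, plus strand) and Tbx5 (ENSRNOG00000001399, chromosome 12 from 42097626 to 42148146, plus strand) are paralogs that activate genes in limb and lung mesenchyme. Tbx4 was at 40.5, 44.9, 55.5 and 61.9 FPKM in MCT 1 to 4, against 59.7, 56.9, 56.2 and 70.3 FPKM in control 1 to 4. MCT 1, 2 and 3 lay below every control library and MCT 4 did not. The log2 fold change of Tbx4 was -0.26 (SE 0.13, 95% interval -0.56 to 0.03), with an adjusted p of 0.193 by edgeR. Tbx5, which is also a factor of heart muscle, was at 8.99, 9.67, 10.9 and 13.8 FPKM in MCT 1 to 4, against 12.4, 10.7, 9.89 and 16.7 FPKM in control 1 to 4. Its groups overlapped, with a log2 fold change of -0.19 (SE 0.18, 95% interval -0.59 to 0.21) and an adjusted p of 0.496 by edgeR. MCT 1, the library with the highest cardiac marker sum, had the lowest Tbx5 level of all 8 libraries. Control 1, with the next highest sum, was at 12.4 FPKM, below control 4 alone among the controls. The part of cardiac tissue in the Tbx5 level was not tested.

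MCT 4 had the highest level of all 4 T-box genes among the MCT libraries, and control 4 the highest of all 4 among the controls. The lowest MCT library was MCT 1 for Tbx2, Tbx4 and Tbx5 and MCT 2 for Tbx3, and the lowest control was control 2 for Tbx2 and control 3 for Tbx3, Tbx4 and Tbx5. Ratios of the closest paralogs and of genes on the same chromosome were also taken within each library. Tbx4 lies 43.2 kb from Tbx2 with no annotated gene between them in the table, and Tbx3 lies 332 kb from Tbx5 with 6 between. The 4 ratios were chosen after the values of the single genes were seen, so they are a description and carry no test, and those with Tbx3 restate its fall beside genes that did not pass the threshold.

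The ratio of Tbx3 to Tbx2 was 0.213, 0.168, 0.159 and 0.179 in MCT 1 to 4, against 0.288, 0.295, 0.256 and 0.305 in control 1 to 4. The groups were apart, and the mean log2 ratio differed by -0.68. The SD of this log2 ratio was 0.18 between MCT libraries, where that of Tbx3 alone was 0.17 and that of Tbx2 alone 0.22, and 0.11 between control libraries, where that of Tbx3 was 0.19 and that of Tbx2 0.15. The ratio of Tbx3 to Tbx5 was likewise lower in every MCT library, with a mean of 2.32 ± 0.271 in MCT and 3.35 ± 0.367 in control (SD, n = 4 each).

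The ratio of Tbx4 to Tbx2 was 0.352, 0.342, 0.373 and 0.377 in MCT 1 to 4, against 0.393, 0.462, 0.3998 and 0.456 in control 1 to 4. This ratio too was lower in all 4 MCT libraries (log2 difference -0.24), although neither gene passed the threshold on its own. The SD of this log2 ratio was 0.07 between MCT libraries, where that of Tbx4 alone was 0.28 and that of Tbx2 alone 0.22, and 0.12 between control libraries, where both genes alone had an SD of 0.15. The ratio of Tbx4 to Tbx5 averaged 4.68 ± 0.284 in MCT and 5.02 ± 0.639 in control (SD, n = 4 each), a log2 difference of -0.09, and its groups overlapped.

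**Figure D2:**
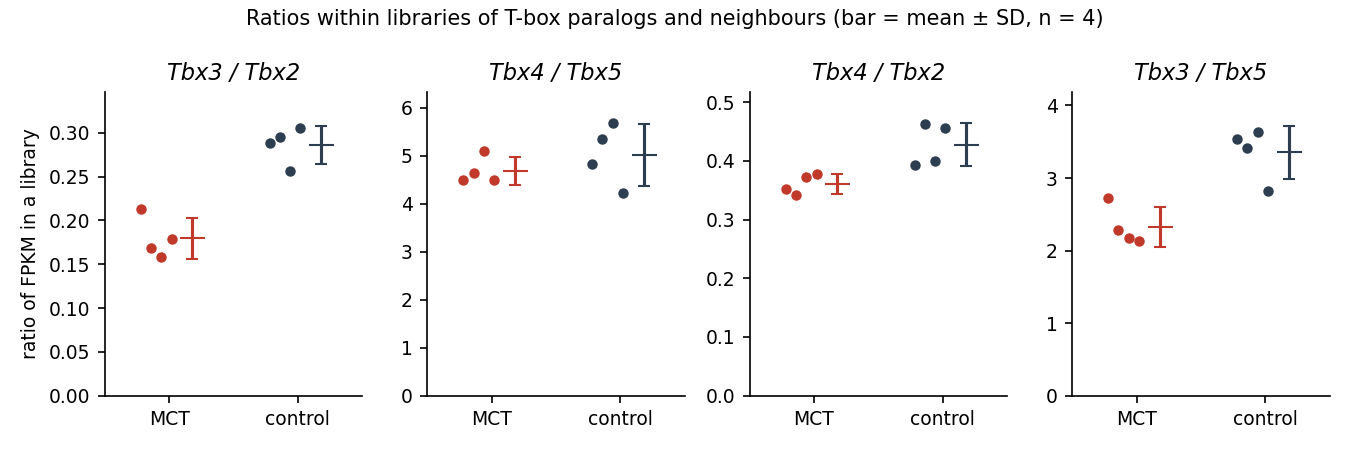
Ratio of the FPKM of T-box genes within a library (vertical axes, from 0) in MCT and control; points are libraries and bars the mean ± SD over 4. The MCT points lie below all control points for Tbx3/Tbx2, Tbx4/Tbx2 and Tbx3/Tbx5, and overlap them for Tbx4/Tbx5.

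Tcf21 (ENSRNOG00000016700, chromosome 1 from 23906717 to 23909566, plus strand) had the highest level of the set. It was at 186, 205, 213 and 260 FPKM in MCT 1 to 4, against 238, 213, 143 and 184 FPKM in control 1 to 4. The groups overlapped. The log2 fold change was 0.15 (SE 0.16, 95% interval -0.21 to 0.51), with an adjusted p of 0.571 by edgeR.

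Twist1 (ENSRNOG00000011101, chromosome 6 from 53401109 to 53403214, plus strand), a factor of early mesoderm that is linked to the mesenchymal state, had the lowest level. It was at 0.98, 0.88, 0.66 and 0.57 FPKM in MCT 1 to 4, against 0.60, 0.43, 0.32 and 0.70 FPKM in control 1 to 4, which stands for 13.6 to 19.3 read pairs per MCT library and 5.99 to 15 per control library. The groups overlapped, and at this depth a change of 1.5-fold was not resolved: the log2 fold change was 0.59 (SE 0.38) with a 95% interval of -0.27 to 1.44 and an adjusted p of 0.318 by edgeR.

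Meox2 (ENSRNOG00000006588, chromosome 6 from 56625650 to 56689238, plus strand) is a homeobox factor of mesoderm that restrains the division of vascular smooth muscle cells. It was at 8.31, 9.08, 10.3 and 9.91 FPKM in MCT 1 to 4, against 8.70, 5.12, 4.87 and 8.28 FPKM in control 1 to 4. The MCT libraries were close together, and the controls fell apart into control 1 and 4, near the MCT level, and control 2 and 3, below it. The log2 fold change of 0.48 (SE 0.19, 95% interval 0.05 to 0.92) did not pass the threshold over all genes (p 0.0332, adjusted p 0.112 by edgeR). With control 1 and MCT 1 both left out it was 0.67 with an adjusted p of 0.0489.

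Gli1 (ENSRNOG00000025120, chromosome 7 from 70620766 to 70630338, minus strand) is transcribed in cells that receive Hedgehog signal. It was at 1.89, 1.92, 2.48 and 1.92 FPKM in MCT 1 to 4, against 2.72, 1.85, 2.64 and 2.59 FPKM in control 1 to 4. MCT 3 and control 2 each lay far from the other 3 libraries of their group. The groups overlapped through control 2, and the other 3 controls lay above every MCT library. The log2 fold change was -0.26 (SE 0.16, 95% interval -0.62 to 0.11, adjusted p 0.313 by edgeR). The annotated span of Gli1 shares 125 bases with that of Arhgap9 on the other strand, and no source used here says whether strand entered the counting. For Arhgap9 the log2 fold change was 0.41, with an adjusted p of 0.106 by edgeR.

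**Figure D3:**
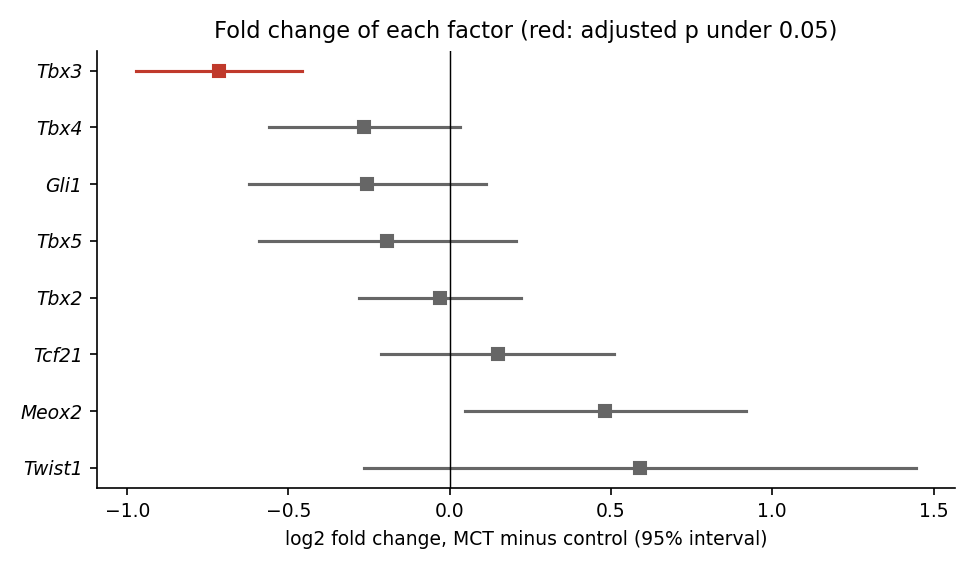
Log2 fold change of MCT minus control for each factor (horizontal axis) with its 95% interval; red marks an adjusted p under 0.05. The interval of Tbx3 runs from -0.97 to -0.46, that of Meox2 excludes 0 before adjustment over all genes, and those of the other 6 factors include 0.

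Of the Hedgehog pathway beyond Gli1, 16 genes were tested, and 1 was higher in MCT and 2 were lower. That is 18.8% called, near the 20.5% of all genes. Ptch1, the receptor whose promoter is printed above, was at 7.76, 7.80, 9.79 and 7.73 FPKM in MCT 1 to 4, against 11.98, 11.3, 12.9 and 14.5 FPKM in control 1 to 4. The groups were apart, with a log2 fold change of -0.62 (SE 0.10, adjusted p 0.00338 by edgeR). Gli3, which acts mainly as the repressor form of the Gli factors, fell by 0.94 on the log2 scale (SE 0.25, adjusted p 0.0273 by edgeR), to 0.648 ± 0.154 FPKM in MCT against 1.24 ± 0.335 FPKM in control (SD, n = 4 each), a call lost on leaving out MCT 2, MCT 4, control 2 or control 4 (adjusted p up to 0.0765 by edgeR). Dhh, a Hedgehog ligand, rose to 7.52 ± 1.01 FPKM in MCT against 3.22 ± 1.54 FPKM in control, a log2 fold change of 1.22 (SE 0.30, adjusted p 0.0195 by edgeR), a call lost on leaving out MCT 4, control 2 or control 4 (adjusted p up to 0.0601). Shh, the ligand of lung epithelium, was at 6.49 to 10.5 FPKM in MCT and 8.38 to 14.1 FPKM in control, and did not pass the threshold (log2 fold change -0.41, adjusted p 0.183 by edgeR). The number called in this list was 5 with DESeq2 or without MCT 1, and 1 without MCT 4, control 2 or control 4.

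Among the 9 other T-box genes tested, 2 were lower and 0 higher (0 higher at an unadjusted p of 0.05, and 0 with DESeq2 or limma). That is 22.2% called, near the 20.5% of all genes. Tbx21, which encodes the T-bet factor of type 1 T cells and NK cells, was at 3.19, 2.31, 2.8 and 1.69 FPKM in MCT 1 to 4, against 5.55, 4.64, 7.02 and 5.39 FPKM in control 1 to 4 (log2 fold change -1.18, SE 0.22, adjusted p 0.00623 by edgeR). Mga, a broadly expressed gene with a T-box domain, fell by 0.56 (adjusted p 0.0398 by edgeR), a call lost with limma and on leaving out any one of MCT 1 to 4, control 2 or control 4. Tbx15 and Tbx20 were listed at 0 in all 8 libraries.

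Of 34 other HOX genes in the table, 14 were tested, of which 3 were higher and 0 lower (1 lower at an unadjusted p of 0.05, and 0 with DESeq2 or limma). The share called was 21.4%, near the 20.5% of all genes. Hoxd4 and Hoxd9, which account for 2 of the 3, reached the minimum for testing through the MCT libraries alone and so could only be called higher. Of the other 12, 1 was higher and 0 lower. That gene, Hoxb7, was at 1.65, 3.46, 4.34 and 4.78 FPKM in MCT 1 to 4, against 1.77, 1.53, 1.42 and 1.55 FPKM in control 1 to 4, so MCT 1 lay with the controls (log2 fold change 1.17, SE 0.32, adjusted p 0.0297 by edgeR). The call was lost on leaving out any one library other than MCT 1 (adjusted p up to 0.0829). Hoxd4 was at 0.10 to 0.29 FPKM in the MCT libraries and at 0 in all 4 controls. That is about 29.4 read pairs summed over MCT and 0 over control. Against an assumed floor of 3 read pairs over the control group this gives 8.96-fold, with no allowance for spread between libraries. The Hoxd4 call was lost in 1 of the 16 alternatives in which the gene was tested. Hoxd9, of the same cluster, was at 0.40 to 1.39 FPKM in MCT against 0 to 0.15 FPKM in control, a call lost on leaving out any one library other than control 4 (adjusted p up to 0.13 by edgeR). Hoxd8, annotated between them, was at 0.15 to 0.60 FPKM in MCT and 0 in all 4 controls and was below the minimum for testing. The called number was 1 without MCT 2, MCT 3, MCT 4, control 1, control 2 or control 3.

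In the list of other mesenchymal factors, 3 of 23 tested genes were higher and 2 lower, 21.7% called, near the 20.5% of all genes. Foxf1, the forkhead factor of lung mesenchyme and endothelium, fell to 69.9, 60.5, 71.8 and 101 FPKM in MCT 1 to 4, against 130, 126, 157 and 142 FPKM in control 1 to 4 (log2 fold change -0.88, SE 0.15, adjusted p 0.00447 by edgeR). Meox1, the paralog of Meox2, rose to 1.17, 3.23, 3.23 and 2.35 FPKM in MCT 1 to 4, against 0.48, 0.70, 0.48 and 0.42 FPKM in control 1 to 4 (log2 fold change 2.24, SE 0.36, adjusted p 0.00332 by edgeR). The other changes were rises of Osr1 (1.55) and Snai2 (1.39), a factor of epithelial-mesenchymal transition, and a fall of Gata6 (-0.41). Twist2, the paralog of Twist1, was at 1.74 to 3.41 FPKM in MCT and 2.31 to 4.90 FPKM in control (log2 fold change -0.32, adjusted p 0.507 by edgeR). Among the partners and inhibitors of basic helix-loop-helix factors, 1 of 7 was lower (14.3% called) and 0 higher (0 higher at an unadjusted p of 0.05, and 0 with DESeq2 or limma). That gene was Id3, an inhibitor (-0.47, adjusted p 0.0418 by edgeR), a call lost with limma and on leaving out any one of MCT 1 to 4, control 1, control 2 or control 4.

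Of 7 genes described in mouse as targets of the T-box factors, 6 were tested, with 3 higher and 1 lower. That is 66.7% of this short list called, against the 20.5% of all genes. The list was chosen with earlier results of these data known, so the difference is a description and carries no test. Cdkn1a, the p21 cell cycle inhibitor that Tbx2 and Tbx3 repress in mouse and that p53 induces, was at 155, 160, 117 and 169 FPKM in MCT 1 to 4, against 46.0, 68.0, 101 and 48.7 FPKM in control 1 to 4. The groups were apart (log2 fold change 1.18, SE 0.26, adjusted p 0.0133 by edgeR), and with control 1 and MCT 1 both left out the adjusted p was 0.0533. Cdkn1b, the related inhibitor p27, is in the same target list and moved the other way. It fell to 44.1 ± 6.99 FPKM in MCT against 77.1 ± 6.07 FPKM in control (SD, n = 4 each). Its log2 fold change was -0.81 (adjusted p 0.00257 by edgeR). Wnt2 (log2 fold change 0.57) and Bmp4 (0.04) did not pass the threshold. Fgf10, the growth factor downstream of Tbx4 and Tbx5, was at 2.81 to 4.18 FPKM in MCT and 2.19 to 2.60 FPKM in control (0.49, adjusted p 0.0367 by edgeR), and Frzb, a secreted Wnt inhibitor, was at 1.62 to 7.66 FPKM in MCT and 1.31 to 2.22 FPKM in control (1.63, adjusted p 0.0394). The Fgf10 call was lost in 13 of 18 alternatives, among them limma and every left-out library but MCT 4, and the Frzb call in 10 of 18. The number called was 2 with limma or no filter, and without MCT 2, MCT 3, control 2, control 3 or control 4.

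**Figure D4:**
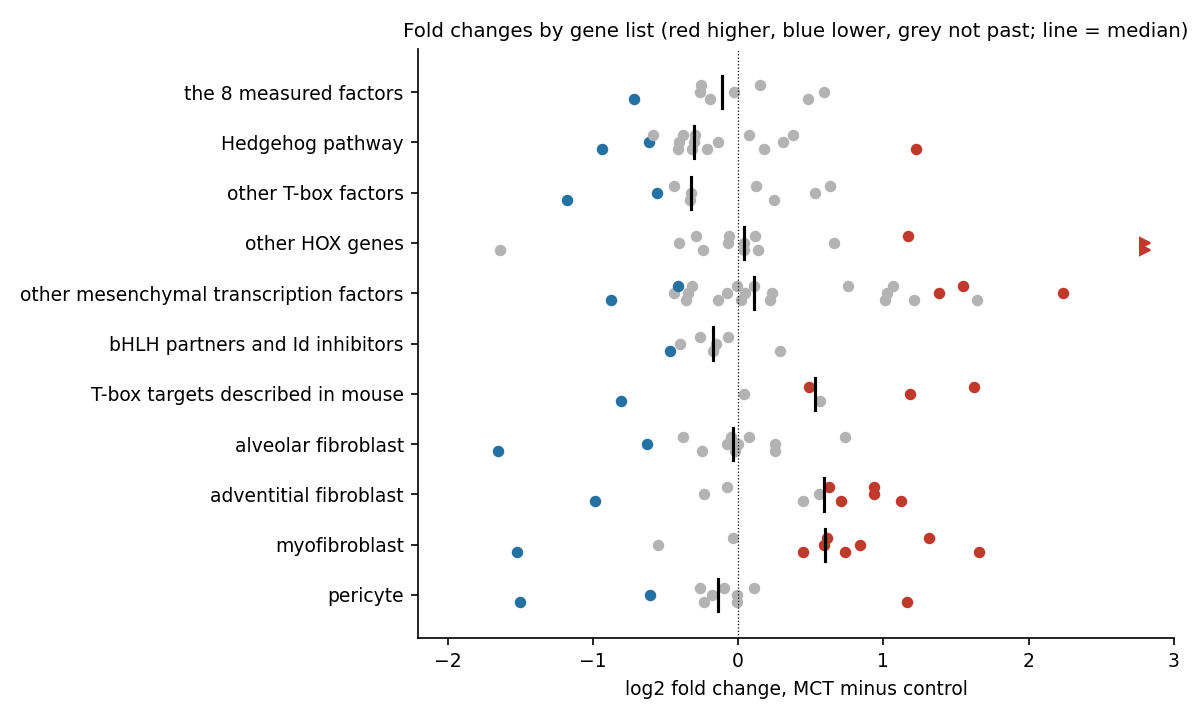
Log2 fold change of MCT minus control (horizontal axis) for the tested genes of each list; red and blue mark genes called higher and lower, grey those not past the threshold, and the black line the median of the list. Triangles at the end of the axis are Hoxd4 and Hoxd9, whose fitted values lie beyond it and depend on the prior count since control was at or near 0; the 8 factors have a median of -0.11 and the myofibroblast list one of 0.60.

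In whole lung, fewer cells of a type and less RNA per cell cannot be told apart. Markers of mesenchymal and other lung cell types were counted as a description, and these counts do not separate the possibilities either. The lists were chosen with earlier results of these data known, so the shares called carry no test. Of 12 alveolar fibroblast genes tested, 2 were lower and 0 higher (1 higher at an unadjusted p of 0.05 and with DESeq2, 0 with limma). That is 16.7% called, against the 20.5% of all genes, with a median log2 fold change of -0.03. Inmt, a methyltransferase, fell by 1.65 and the receptor Fgfr4 by 0.63 (adjusted p 0.00319 and 0.0105 by edgeR), while for Col13a1, a collagen of these cells, the log2 fold change was -0.07 with an adjusted p of 0.623. Of 10 adventitial fibroblast genes, 5 were higher and 1 lower (60% called), among them Igfbp4 (1.121) and Ccl11 (-0.99). Of 10 myofibroblast genes, 7 were higher and 1 lower (80% called), with a median of 0.60. Those higher included the matrix genes Tnc (1.66) and Aspn (1.31). The lower gene was Lgr5 (-1.52), a call lost in 6 of 17 alternatives. The number called was 3 to 5 on leaving out any one library other than MCT 1. Of 10 pericyte genes, 1 was higher (Trpc6, 1.16, a call lost in 3 of 18 alternatives) and 2 lower (Rgs5, -1.50, and Notch3, -0.60), 30% called. The other 7 did not pass the threshold, among them Pdgfrb (-0.10), Cspg4 (-0.004) and Higd1b (-0.009).

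The summed level of 6 fibroblast markers was 930 to 1602 FPKM in MCT and 445 to 545 FPKM in control. Of the 6, 66.7% were called, against the 20.5% of all genes. In all, 4 were higher and 0 lower (0 lower at an unadjusted p of 0.05, and 0 with DESeq2 or limma). Those higher were the matrix genes Col1a1, Col3a1, Lum and Fn1, while Pdgfra (log2 fold change 0.08) and Dcn (-0.07) did not pass the threshold. Col3a1 made the largest part of the sum (mean 809 FPKM in MCT and 302 FPKM in control). For 8 macrophage markers the sum was 495 to 907 FPKM in MCT and 243 to 360 FPKM in control. Of the 7 tested, 5 were higher and 0 lower, 71.4% called (0 lower at an unadjusted p of 0.05, and 0 with DESeq2 or limma). Those higher were Cd68, C1qa, C1qb, C1qc and Adgre1, while Csf1r (log2 fold change 0.18) and Mrc1 (0.72, adjusted p 0.0684 by edgeR) did not pass the threshold. For 8 endothelial markers the sum was 548 to 679 FPKM in MCT and 809 to 965 FPKM in control. Of these 8, 0 were higher (0 at an unadjusted p of 0.05, and 0 with DESeq2 or limma) and 4 lower, 50% called. The endothelial genes that fell were Tek, Flt1, Clec14a and Esam, while Cdh5, Tie1, Kdr and Egfl7 did not pass the threshold, Egfl7 being at a log2 fold change of 0.21. The sum of 8 epithelial markers was 15623 to 18799 FPKM in MCT and 20794 to 29195 FPKM in control. Most of it was the surfactant gene Sftpc (mean 15164 FPKM in MCT and 21541 FPKM in control). Of these 8 markers, 2 were lower (Sftpc and Krt18) and 0 higher (0 higher at an unadjusted p of 0.05, and 0 with DESeq2 or limma). That is 25% called, near the 20.5% of all genes. The sum of 8 smooth muscle markers was 780 to 1269 FPKM in MCT and 723 to 1033 FPKM in control, and of 7 mesothelial markers 444 to 678 FPKM in MCT and 435 to 657 FPKM in control. Most of the mesothelial sum was Krt19 (mean 391 FPKM in MCT and 448 FPKM in control), which is also in the epithelial list. Other mesothelial markers varied widely between libraries. Msln was at 29.2 to 99.85 FPKM in MCT and 22.86 to 54.92 FPKM in control, and Upk3b at 14.24 to 96.55 FPKM and 12.24 to 67.28 FPKM. The part of any of these cell types in the fall of Tbx3 was not tested. No marker in the table was at 0 in all libraries.

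The gene whose profile over the 8 libraries lay nearest to that of Tbx3, among 11248 genes with a symbol and a mean of at least 2 FPKM, was Thbd, which encodes the endothelial anticoagulant receptor thrombomodulin. The distance between the profiles, centred on the log2 scale, was 0.160, against a median of 1.25 over those genes. Thbd was at 185, 176, 192 and 215 FPKM in MCT 1 to 4, against 345, 265, 268 and 372 FPKM in control 1 to 4. Its log2 fold change was -0.70, a likeness to that of Tbx3 which the choice by profile over all 8 libraries fixes.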

How the data were processed

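Whole-lung RNA of 4 MCT and 4 control libraries was compared. The authors' processing used cutadapt 1.9, HISAT2 2.0.4, StringTie 1.3.4d and edgeR, and the genome build was Rnor_6.0 (both from the submitters' processing notes; settings are not stated there). The deposited table gives an estimated count and an FPKM value for each gene and library, per the file headers. The estimated counts are whole numbers spaced by about 3.67 units, taken as 1 read pair. Counts were tested with edgeR 4.0.16 in R 4.3.3 (quasi-likelihood, robust, TMM, filterByExpr with minimum count 10, two-sided, adjusted p under 0.05 over 16715 genes), and intervals are 95%. The step was tested on simulated data. Alternatives were DESeq2 1.42.0, limma 3.58.1 on log2(FPKM + 0.5, 0.1 or 1), other filters and scalings, a replicate block and left-out libraries.

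All members were named, of each list the 2 called genes with the smallest p (or the tested gene of highest FPKM), the gene nearest in profile to each called member, and genes overlapping a member. Others are examples chosen after their values were seen. The members and lists were chosen with earlier results of these data known. No libraries of a group were duplicates (chi-square per gene at least 14.3). No source used here says how reads shared by paralogs were counted.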

Additional observations from a re-analysis of the deposited data

Results flagged for a closer look

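A single library stood apart from its group in 9 of 98 combinations of a gene or ratio with a group. Independent, normally spread combinations would give about 4.9. These share libraries and genes, and many are genes picked for being called, so no conclusion is drawn from the difference. Measured on log2 CPM, the distance to the closest library divided by the group's full range was 0.851 for Gli1 in MCT (MCT 3 at 2.48 FPKM, the others at 1.89 to 1.92) and 0.836 for Gli1 in control (control 2 at 1.85, the others at 2.59 to 2.72). It was 0.878 for Ptch1 in MCT, where MCT 3 again stood above the others (9.79 FPKM, the others at 7.73 to 7.80). MCT 3 also had the highest Ccl11 level in MCT (0.833, 11.7 FPKM against 7.52 to 7.96). MCT 1 had the lowest Clec3b level (0.863, 165 FPKM against 242 to 259) and the lowest Notch3 level (0.848, 15.7 FPKM against 18.8 to 18.9), and MCT 2 the highest Rgs5 level (0.885, 15.5 FPKM against 8.19 to 9.08). In control, Cd34 was lowest in control 3 (0.831, 38.6 FPKM against 57.1 to 60.02) and Snai2 in control 2 (0.837, 0.48 FPKM against 1.02 to 1.18).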

How the results depend on the processing

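The fall of Tbx3 passed the threshold under all 18 alternatives, at -0.81 to -0.65 on the log2 scale with adjusted p up to 0.0144, and the number of factors lower was 1 in each. The number higher was 1 with control 1 and MCT 1 both left out (Meox2) and 0 elsewhere. Among those not called, the log2 fold change of Tbx2 ran from -0.12 to 0.07 and so changed sign, while those of Tbx4, Tbx5, Gli1, Tcf21, Meox2 and Twist1 kept theirs (Twist1 in the 17 where it was tested). The ratio differences kept their sign without any library, at -0.76 to -0.62 for Tbx3 to Tbx2, -0.61 to -0.49 for Tbx3 to Tbx5, -0.28 to -0.20 for Tbx4 to Tbx2 and -0.17 to -0.03 for Tbx4 to Tbx5. Of 37 called list genes, 18 stayed called under every alternative in which they were tested, and no called gene changed sign.

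Numbers of called genes moved by over 1.5 times in these cases. Without the filter on low counts, the T-box targets had 2 called, the myofibroblast list 4 and the helix-loop-helix partners 0. With a level of at least 1 FPKM in 4 libraries, or counts divided by the read-pair value, the HOX genes had 1. DESeq2 called 5 Hedgehog genes, 2 helix-loop-helix partners and 4 alveolar fibroblast genes. limma with each of the 3 pseudocounts called 1 other T-box gene, 2 T-box targets and 0 helix-loop-helix partners, which was also 0 with control 1 and MCT 1 both left out. Deviations of same-numbered libraries correlated at 0.11 for number 1, which was also the best match of its own number, and at -0.08 to 0.02 for the others, so the numbers were not taken as pairs. With the replicate block, the change of Tbx3 was -0.72 (adjusted p 0.0045 by edgeR), and 1 other T-box gene, 0 HOX genes, 0 helix-loop-helix partners, 2 T-box targets and 4 myofibroblast genes were called. On leaving out 1 library, 1191 to 1946 genes were higher and 975 to 1730 lower, both lowest without MCT 2. The called numbers then ran from 1 to 5 for the Hedgehog list, 1 to 2 for the other T-box genes, 1 to 2 for the HOX genes, 0 to 1 for the helix-loop-helix partners, 2 to 4 for the T-box targets, 2 to 4 for the alveolar fibroblast list and 3 to 8 for the myofibroblast list. The causes were not tested. Depth limits Twist1, Hoxd4 and Hoxd9, which had few reads.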
